A study of Drosophila melanogaster with 3 samples.

Results

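The odd-skipped family of Drosophila melanogaster consists of odd, bowl, sob and drm, 4 genes for zinc-finger transcription factors, and makes up 4 of the 13968 protein-coding genes compared here. The regions described are those in which the Insensitive protein was mapped over each gene or within 10 kb of it, ranked within each list by the authors' signal value. The family was selected on the ranks and signals of these same lists, in which bowl was known to have a peak, so those values are given as a description and carry no test. Windows of 10 kb around the genes covered 106.9 kb and held 1 of 732 thresholded peaks, 59 of 30000 pooled regions, and 49, 64 and 43 of 30000 regions in replicates 1, 2 and 3.

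The study mapped Insensitive, the product of insv, by chromatin immunoprecipitation and sequencing (ChIP-seq) in embryos of mixed sex aged 0 to 24 hours. The single group of 3 biological replicates came from the insv-GFP line, in which GFP is joined to the C terminus of insv, and an antibody against GFP was used. Neither the promoter that drives the fusion nor the number of insv copies in the line is stated in the labels, and there is no second group. Whole embryos of all these ages were pooled, so weak occupancy in many cells and strong occupancy in few cannot be told apart.

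Insensitive is a BEN-domain protein that binds DNA, prefers the palindrome CCAATTGG and acts as a co-repressor, known for restraining Notch signalling in the nervous system. In the odd-skipped family, odd is a pair-rule segmentation gene, and bowl and drm are needed to pattern the embryonic foregut and hindgut. Drm binds the Lines protein and so frees Bowl, which Lines would otherwise keep inactive. The family members are also expressed in rings in the developing leg, downstream of Notch, where they take part in joint formation.

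Each replicate list held 30000 regions, peaks together with background, and so did the list called on the pooled replicates. The thresholded list, the peaks that passed the authors' test of reproducibility between replicates (irreproducible discovery rate), was identical to the top 732 regions of the pooled list. The last thresholded peak had a signal of 75 and the median 122. The scale of the signal is not stated and the sequencing depth is unknown, so signals were compared only within a list and no interval was computed. For 617 of the 732 thresholded peaks, that at bowl included, the deposited summit was within 1 bp of the region's centre, so a summit distance often refers to the centre of a call with a median width of 416 bp.

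The 4 genes lie on chromosome arm 2L (dm6). In order along the arm, drm (FBgn0024244, 3539247 to 3548423, plus strand), sob (FBgn0004892, 3578013 to 3580769, minus strand) and odd (FBgn0002985, 3604224 to 3606756, minus strand) form a cluster of 67.5 kb, and bowl (FBgn0004893, 3771700 to 3784121, plus strand) lies 164.9 kb farther on. The gap between drm and sob is 29589 bp and that between sob and odd 23454 bp, so the 10 kb windows of the 4 genes do not overlap.

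The bowl gene, which encodes the effector of the Lines pathway, was the only member with a thresholded peak within 10 kb, 1 of 4 genes, where 17.5% of all protein-coding genes had one. The peak, at 2L:3771297-3771712, lay just upstream of bowl, with its summit at 3771505, 195 bp before the outermost of the 4 annotated starts of the gene (3771700). The summit is intergenic. The nearest other annotated start is that of lncRNA:CR43704, which reads away from bowl on the minus strand and begins at 3770454, 1246 bp from the bowl start. No other coding start is nearer than that of CG43707, 5391 bp from bowl. The sequence of 201 bases centred on the summit, 2L:3771405-3771605 on the plus strand of dm6, which is the direction of bowl, is shown because this peak carries the result. Its capitals mark the single match to a GATA-factor motif (AGATAA or TGATAA, either strand) and no other motif searched was found in it.
bowl summit: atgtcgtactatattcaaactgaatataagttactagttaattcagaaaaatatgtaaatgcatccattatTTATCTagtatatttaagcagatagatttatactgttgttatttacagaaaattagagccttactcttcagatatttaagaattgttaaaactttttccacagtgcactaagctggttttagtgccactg

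The bowl peak had a pooled signal of 102 and was 476th of the 732 thresholded peaks, in the lower part of the list, which reached 1202.4. The region overlapping it ranked 634 of 30000 in replicate 1 with a signal of 37.3. It ranked 436 in replicate 2 with a signal of 41.1, and 665 in replicate 3 with a signal of 22.6. The mean rank was 578 ± 124 (SD, n = 3), and all 3 regions were the strongest of their list within 10 kb of bowl. The summits of the 3 replicate regions lay 230, 183 and 236 bp upstream of the start, a spread of 53 bp. Being within the top 1000 of every replicate was common among thresholded peaks, 479 of 732 (65.4%), and because the replicates entered the pool this recovery is not independent of the threshold. By its lowest replicate rank, 665, bowl was matched or bettered by 404 of the 732 peaks (55.2%), bowl included. That places it near the middle of the thresholded list by rank in the weakest replicate, which does not measure agreement between replicates.

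**Figure D1:**
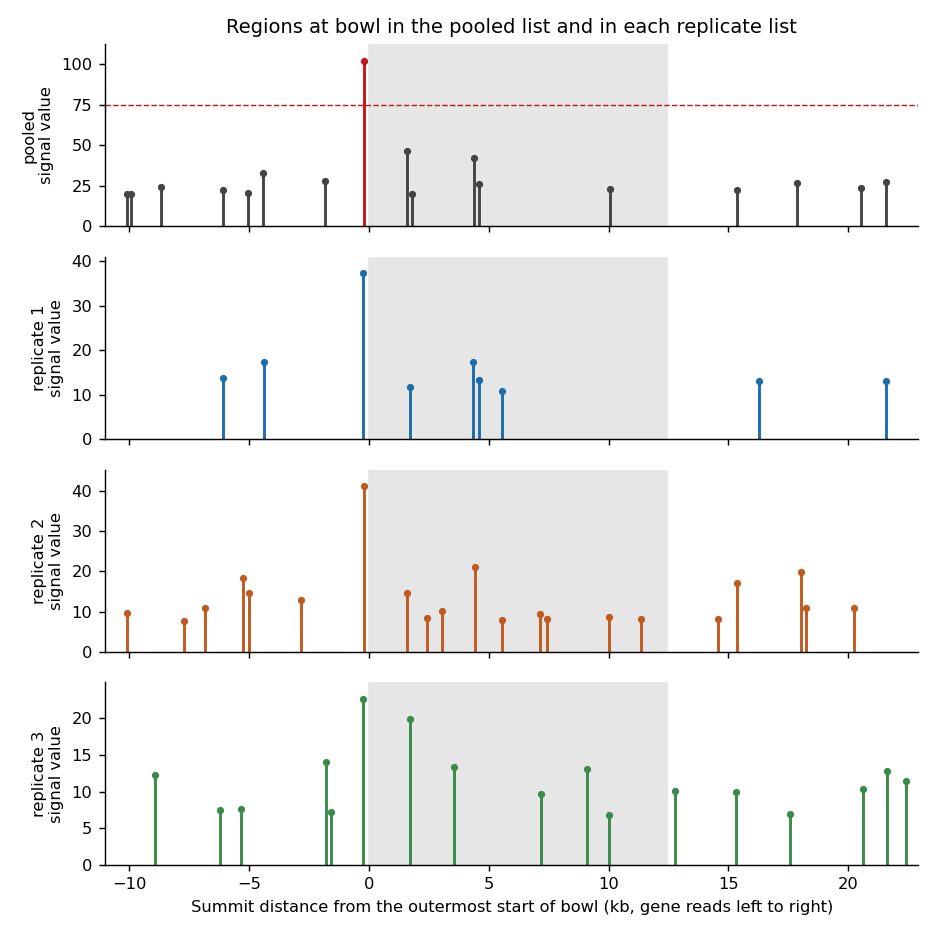
Signal value of each region within 10 kb of bowl (vertical axes, the authors' own scale, 1 panel per list) against the distance of its summit from the outermost bowl start in kb, with the gene body shaded. The region just upstream of the start is the tallest in all 4 panels, and in the pooled panel it alone, in red, stands above the dashed line at 75, the signal of the last thresholded peak.

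Within the bowl gene the regions were weaker and varied between replicates. The next region of the pooled list, at 2L:3773090-3773505 in an intron, ranked 2165 with a signal of 46.5, and its summit lay 1272 bp downstream of the nearest bowl start. Its overlapping regions ranked 22080 in replicate 1, 5818 in replicate 2 and 971 in replicate 3, a mean of 9623 ± 11056.9 (SD, n = 3). Replicate 3 was therefore the only one with an overlapping region in its top 1000. The same replicate regions also overlap a weaker pooled call of rank 27931. In replicates 1 and 3 their summits lay nearer to that call, and in replicate 2 nearer to the region of rank 2165. A further intronic region at 2L:3775889-3776304, with its summit 2841 bp before the most downstream bowl start (3778938), ranked 2968 in the pooled list with a signal of 42.2. It ranked 7214 in replicate 1 and 1836 in replicate 2 and had no counterpart in replicate 3. That downstream start had no pooled summit within 1 kb. Replicate 2 had summits 78 bp upstream (rank 19593) and 191 bp downstream (rank 27136) of it, replicate 3 had 1 summit 54 bp upstream (rank 12859) and replicate 1 had none. In all lists the outermost start thus held the highest-ranked region of the gene.

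The window around bowl held 17 regions in the pooled list, and 9, 21 and 17 in replicates 1, 2 and 3. Several of the pooled calls fell in neighbours, coding exons of CG43707 and bark among them, and their signals lay between 19.8 and 33.2. Beyond 10 kb, the nearest other thresholded peak was 20.4 kb away in an intron of Reph, rank 422 with a signal of 109. The bowl peak was thus isolated, with no second thresholded peak in its window.

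The drm gene encodes the short zinc-finger partner of Lines, and its strongest region fell short of the threshold. This region, at 2L:3533103-3533518, ranked 909 in the pooled list with a signal of 66.4, against 75 for the last thresholded peak. Its summit lay 5936 bp upstream of the outermost drm start, in the intergenic stretch after IFT57, a gene for an intraflagellar transport protein whose start was the nearer. The overlapping regions ranked 824 with a signal of 33.5 in replicate 1, 4243 with 16.2 in replicate 2 and 7965 with 11.2 in replicate 3. The mean rank was 4344 ± 3571.6 (SD, n = 3), so replicate 1 ranked it far above the other two. With bowl, drm was 1 of 2 members with a region in the top 1000 of replicate 1, where 24.0% of all protein-coding genes had one. In replicates 2 and 3 bowl was the only member, 1 of 4 genes, against 22.5% and 24.8% of all genes.

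The palindrome CCAATTGG occurred once in the 4 windows, beside the drm region. Per 10 kb that was 0 at bowl, odd and sob and 0.343 at drm, from 1 copy, against 0.215 over all chromosome arms. The copy lies at 2L:3532985-3532992, 6259 bp upstream of drm, 111 bp from the edge of the pooled region and 322 bp from its summit. The gaps to the overlapping regions of replicates 1, 2 and 3 were 112, 77 and 180 bp, so the palindrome lay outside the call in every list. The sequence at the drm summit, 2L:3533211-3533411 on the plus strand of dm6 (the direction of drm), held none of the motifs within 100 bp of the summit. The stretch around the palindrome, 2L:3532945-3533032 on the same strand, is shown beside it, with capitals for CCAATTGG and for 3 GATA-factor matches that flank it.
drm summit: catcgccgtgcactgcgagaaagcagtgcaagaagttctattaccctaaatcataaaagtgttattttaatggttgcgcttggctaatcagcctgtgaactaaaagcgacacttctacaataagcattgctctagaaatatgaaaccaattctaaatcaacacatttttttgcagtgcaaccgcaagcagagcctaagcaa
drm palindrome: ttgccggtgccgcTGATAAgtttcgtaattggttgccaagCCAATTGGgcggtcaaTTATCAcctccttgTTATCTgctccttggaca

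No pooled summit lay within 1 kb of a drm start, and the replicates had only low-ranked calls there. Replicate 1 had a summit 597 bp upstream (rank 19819), the best of replicate 2 was 651 bp upstream (rank 12766) and replicate 3 had a summit 5 bp downstream (rank 8451). The highest region of replicate 3 within 10 kb, rank 5350, lay in the 3′ UTR of IFT57 and had no counterpart in replicates 1 and 2. On the far side of drm, 16361 bp downstream of its nearest start, a region at 2L:3555886-3556301 ranked 3531 in the pooled list. The best-ranked regions overlapping it were 2058th, 4775th and 11541st in replicates 1, 2 and 3. Another of replicate 2, of rank 16013, had its summit nearer to the pooled one. The remaining pooled regions at drm ranked between 3388, in a coding exon of Spindly, and 29488.

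The odd gene, the pair-rule founder of the family, had no thresholded peak within 10 kb. Its strongest pooled region, at 2L:3594042-3594457, ranked 1926 with a signal of 48.3 and lay 9767 bp from the gene on the downstream side, just inside the limit. The overlapping regions ranked 1847 with a signal of 25.2 in replicate 1 and 1714 with 21.4 in replicate 2, and replicate 3 had none. A second intergenic region at 2L:3614736-3615151, 8188 bp upstream of the start, ranked 2926 with a signal of 42.4. The best-ranked regions overlapping it were 4170th, 1561st and 13011th in replicates 1, 2 and 3. In replicates 1 and 2 other overlapping regions, of ranks 9445 and 16820, had summits nearer to the pooled one. The pooled region holds a CAATTG, the core of the palindrome, 83 bp from its summit. At the start of odd itself, a region at 2L:3606703-3607118 with its summit 155 bp upstream ranked 6038 with a signal of 34.1. There replicate 2 had a region of rank 3145, replicate 3 had the 26151st of its list and replicate 1 had none overlapping. Bowl and odd were the 2 of 4 members with a pooled summit within 1000 bp of a start, against 57.4% of all protein-coding genes. With a thresholded summit at that distance bowl was 1 of 4 members, against 4.37% of all genes.

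The sequences of 201 bases at the strongest odd region, 2L:3594150-3594350, and at the odd start, 2L:3606811-3607011, are given on the minus strand of dm6, in the direction of odd. They are shown to set the odd start beside that of bowl and for the run of GAGA-factor motifs (GAGAGAG, here as its reverse complement) at the distal region. Capitals mark that run and 1 GATA-factor match. None of the motifs was found at the odd start.
odd distal summit: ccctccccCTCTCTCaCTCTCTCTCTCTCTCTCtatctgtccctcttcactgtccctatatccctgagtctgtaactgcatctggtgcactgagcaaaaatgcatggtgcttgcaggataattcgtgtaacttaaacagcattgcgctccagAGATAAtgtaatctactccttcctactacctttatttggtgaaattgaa
odd start: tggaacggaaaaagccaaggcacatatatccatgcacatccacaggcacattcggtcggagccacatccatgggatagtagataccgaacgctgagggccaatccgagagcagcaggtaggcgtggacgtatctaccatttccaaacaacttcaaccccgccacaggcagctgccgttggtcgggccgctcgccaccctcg

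The nearest thresholded peak to odd was just outside the limit and was among the strongest of the study. It spans 2L:3618977-3619324, 12221 bp from odd, and ranked 11th with a signal of 647. Its summit is 45 bp downstream of the start of Ugt36A1, a UDP-glycosyltransferase gene, in the 5′ UTR, and its ranks in replicates 1, 2 and 3 were 9, 7 and 19. The same peak was the nearest to sob, at 38.2 kb, and to drm, at 70.6 kb, so the whole drm, sob and odd cluster held no thresholded peak in its windows.

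The sob gene, the close neighbour of odd and read in the same direction, had no region of any list with its summit within 1 kb of its start. Just beyond that limit, a pooled summit of rank 10181 lay 1091 bp downstream, in its coding exon. Regions overlapping that call ranked 8132 in replicate 2 and 28007 in replicate 3, and replicate 1 had none. The strongest pooled region at sob lay 7876 bp downstream of the start, at 2L:3572685-3573100, and ranked 2599 with a signal of 43.9. Overlapping regions ranked 2506 in replicate 1 and 2148 in replicate 2, and replicate 3 had none. In replicate 1 the best sob region was another, rank 1376 with a signal of 27.6, 10183 bp downstream of the start. That region ranked 16826 in the pooled list and had no overlapping region in replicates 2 and 3. The nearest calls of those replicates, of ranks 8150 and 20175, ended just short of it. The best of replicate 3 was again elsewhere, 3409 bp upstream, at rank 9485.

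**Figure D2:**
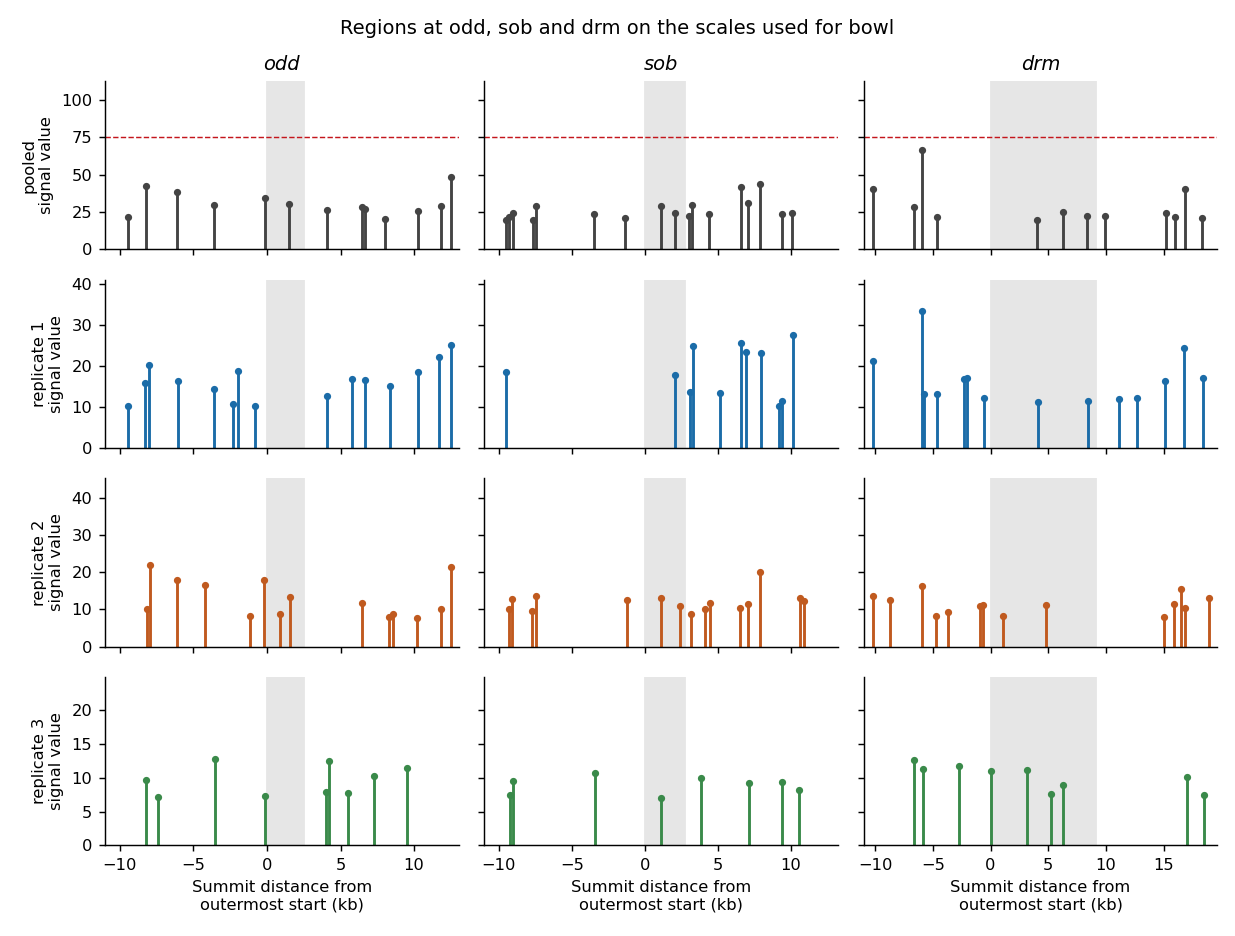
Signal value of each region within 10 kb of odd, sob and drm (columns) in the pooled list and in replicates 1, 2 and 3 (rows), on the scales used for bowl, against the distance of the summit from the outermost start in kb, with gene bodies shaded. No region reaches the dashed line at 75 in the pooled row, and the tallest, 66.4, is the one upstream of drm.

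Set side by side, bowl had the best-ranked region of the family in every list, and the order of the other members changed between lists. The best pooled ranks within 10 kb were 476 for bowl, 909 for drm, 1926 for odd and 2599 for sob, against a median of 2729 over the 13417 protein-coding genes with a pooled region. At or better than these ranks were 13%, 21.2%, 38.2% and 46.8% of all genes. In replicate 1 the best ranks were 634 for bowl, 824 for drm, 1376 for sob and 1847 for odd. In replicate 2 they were 436 for bowl, 1561 for odd, 2148 for sob and 4243 for drm. In replicate 3 they were 665 for bowl, 5137 for odd, 5350 for drm and 9485 for sob. The replicate 3 ranks depend on the value used. The second score the authors give each region (column 9) was an alternative chosen after seeing the data. By it the best ranks were 653 for bowl, 1930 for drm, 2153 for sob and 2551 for odd, another order of the last 3. For drm, sob and odd these belong to other regions, 11541st, 11564th and 13011th by signal value, each with a second score of 0.139. The regions best by signal had second scores of 0.136 at drm, 0.134 at sob and 0.136 at odd. By signal value, the share of all genes at or better ranged over the replicates between 11.7% and 17.6% for bowl, 20.5% and 66.8% for drm, 32.3% and 66% for odd, and 30.6% and 80.3% for sob. The ranges of drm, odd and sob overlapped, and the highest share for bowl, 17.6%, lay under the lowest of the others, 20.5%.

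**Figure D3:**
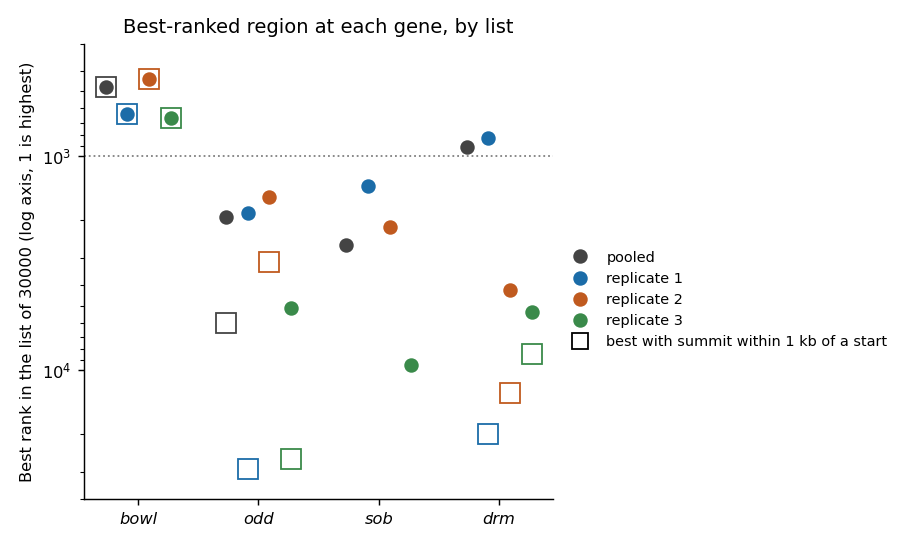
Best rank among the regions within 10 kb of each gene (log axis, 1 at the top) in the pooled list and in replicates 1, 2 and 3, with open squares for the best region whose summit lay within 1 kb of a start of the gene. For bowl the squares coincide with the points in all 4 lists, for odd and drm they lie at or below the points, and sob has none.

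**Figure D4:**
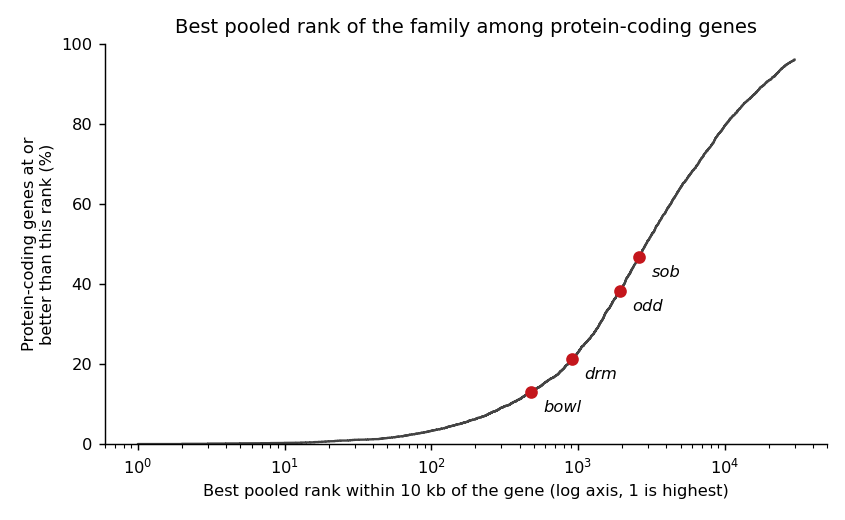
Share of all protein-coding genes (%) whose best pooled region within 10 kb ranked at or better than the value on the horizontal log axis, with the 4 family members marked. Bowl stands at 13% and sob at 46.8%.

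The 4 windows together held more regions per length than the chromosome arms, the Y chromosome included. Not every gene lay above the median gene in every replicate. The joint density was 5.52 pooled regions per 10 kb, against 2.18 over all chromosome arms. Replicate 1 had 4.58, replicate 2 5.99 and replicate 3 4.02 per 10 kb, each against 2.18. Windows drawn around genes differ from the arms as a whole, and the median gene had 3.25 pooled regions per 10 kb. By gene, the pooled density was 7.47 per 10 kb at sob, 5.77 at odd, 5.24 at bowl and 4.11 at drm, which 1.69%, 10.7%, 16.5% and 33.9% of all genes reached or exceeded. The gene with the densest pooled calls was thus sob, whose strongest pooled region was the weakest of the 4. Its density in replicates 1, 2 and 3 was 4.83, 6.59 and 3.52 per 10 kb, and that of odd 6.66, 6.21 and 3.99, against medians over all genes of 3.16, 3.15 and 3.16. At bowl it was 2.78, 6.48 and 5.24 per 10 kb, and at drm 4.8, 4.8 and 3.08. Bowl in replicate 1 and drm in replicate 3 thus lay under the median gene, with 58.1% and 51.4% of all genes at or above them.

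Few of these calls were shared by all replicates. Of the 59 pooled regions at the family, 9 (15.3%) overlapped a region in each of the 3 replicate lists, 31 (52.5%) in 2 of them, 18 (30.5%) in 1 and 1 in none. Over the whole pooled list 21.1% were found in 3 replicates, and among thresholded peaks 717 of 732 (98%). Some pooled calls overlap each other, such as the intronic bowl region of rank 2968 and that of rank 14025, which both meet the same replicate 1 region, so the counts are not of separate sites. By position, 33 of the 59 summits were intergenic, 11 in coding exons, 9 in introns, 3 in non-coding exons, 2 in 3′ UTRs and 1 in a 5′ UTR.

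In base composition the bowl peak stood near the low end of the thresholded peaks. The 201 bases at its summit were 27.9% G and C, a value at or below which 30 of the 732 thresholded peaks lay, bowl included. The median was 39.8% over thresholded peaks, with quartiles of 34.3% and 44.8%, and 46.8% over pooled regions. The odd start region, with 57.2%, was near the other end, and 720 of the 732 thresholded peaks were at or below it. The strongest regions of odd, sob and drm had 44.8%, 41.8% and 39.8%.

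Of 7 motifs sought on both strands within 100 bp of the summit, the strongest bowl region held the GATA-factor motif only. That motif was found at 25.7% of thresholded peaks, 17.6% of pooled regions and 22.4% of 19275 coding starts in windows of the same length. The palindrome CCAATTGG, absent at all 4 strongest regions of the family, was found at 98 of 732 thresholded peaks (13.4%), 0.95% of pooled regions and 0.7% of coding starts. CCAATAAG, the motif of the related Elba complex, was absent there too and was found at 7.79%, 0.737% and 0.576% of the same windows. It occurred 5 times in the 4 windows, none of them inside a pooled region, and the nearest to a start was 586 bp upstream of sob. Per 10 kb that was 0.617 at bowl, 0 at odd, 0.439 at sob and 0.685 at drm, from at most 2 copies each, against 0.302 over all chromosome arms. The copy at 2L:3768965-3768972, in the 3′ UTR of CG43707 in the bowl window, lay inside a replicate 2 region of rank 8355. CAATTG, which lies within CCAATTGG and so is counted wherever that is, occurred 11, 10, 2 and 10 times in the windows of bowl, odd, sob and drm. Per 10 kb that was 3.39, 4.44, 0.879 and 3.43, against 4.44 over all chromosome arms. One copy lies 543 bp upstream of the bowl start, 137 bp from the edge of the peak and 347 bp from its summit. Within 100 bp of the summit or start, 19.9% of thresholded peaks, 8.46% of pooled regions and 8.17% of starts held CAATTG. The bowl peak is not among them. GAGAGAG was found at the strongest odd region and at 8.2% of thresholded peaks, 2.39% of pooled regions and 4.68% of starts. The DREF motif TATCGATA and the M1BP motif GGTCACAC were found at none of the 4 strongest regions, against 3.55% and 3.14% of thresholded peaks and 6.44% and 5.68% of starts. A match or its absence describes the letters of these windows only.

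The protein-coding genes most like bowl in their best ranks over the 3 replicates, by Euclidean distance of log10 ranks among 13039 genes with a region in each, were first its own neighbours. CG43703 and CG43707 had a distance of 0 because the bowl peak lies within 10 kb of them too. The next was simj (FBgn0010762, 3L 10664739 to 10690734), which encodes a subunit of the NuRD chromatin complex, at a distance of 0.0546. Its best ranks were 682, 442 and 736 in replicates 1, 2 and 3, and its pooled rank of 908 left it without a thresholded peak. These are best ranks anywhere within 10 kb of the gene, and whether the 3 simj ranks come from 1 region was not examined. Best ranks like those of bowl were thus also found at a gene below the threshold.

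Other genes of the processes in which the family acts were taken from 3 short lists and counted in the same way. Of 12 gut patterning genes, 1 (8.33%) had a thresholded peak within 10 kb, against 17.5% of all genes. This was fkh, a forkhead factor of the gut ends, whose peak ranked 519 with a signal of 95.8 and a summit 245 bp upstream of its start. Its ranks in replicates 1, 2 and 3 were 401, 1704 and 6861, a wider spread than at bowl. The Lines gene lin, singled out after its value was seen, had no thresholded peak and a best pooled rank of 893, close to that of drm.

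Of 10 segmentation genes, the partners of odd, 4 (40%) had a thresholded peak within 10 kb, against 17.5% of all genes. The sloppy-paired genes slp1 and slp2 share 1 peak, of rank 601 with a signal of 86.6, between them. The odd-paired gene opa had a peak of rank 195 with a signal of 181, 302 bp upstream of its start. The ftz gene had 2 peaks, and the better, rank 55 with a signal of 345, lay 9804 bp upstream of it, where the start of Scr was nearer. Of 9 genes of leg joint formation, 3 (33.3%) had such a peak, against the same 17.5%. N, the Notch receptor gene, had an intronic peak of rank 545 and a signal of 91.9. The POU-domain gene nub had 3 peaks, the best of rank 120 with a signal of 247 in an intron. The co-repressor gene gro also had 3, the best of rank 302 with a signal of 141, 132 bp upstream of its nearest start. The median best pooled rank was 1417.5 for the 4 family members, 4204.5 for the gut list, 980 for the segmentation list and 1974 for the leg joint list, against 2729 for all genes with a region. The lists were drawn up with results of these data known, so the counts describe them and were not tested.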

How the data were processed

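ChIP-seq of GFP-tagged Insensitive was analysed from 5 deposited dm6 region lists, 3 replicate lists, 1 pooled and 1 thresholded. The authors called the lists with a control library, which was not analysed here, and the replicates are biological per the labels. No label or header used here names the aligner, the peak caller, the threshold or the depth. Column 7 of the deposited lists is the caller's signal value on an unstated scale, and regions were ranked by it within each list. Column 9 holds a further score the authors deposited, used only as an alternative, and columns 5 and 8 are constant. Lists on dm3 were not used.

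Genes came from Ensembl release 115 (BDGP 6.54) and sequences from the matching RefSeq release 6 assembly. Regions were assigned to a gene when they overlapped it or lay within 10 kb, and regions of different lists were matched by an overlap of at least 1 bp. Where several regions of a list overlapped, the best-ranked was taken. Summit distances refer to the nearest annotated start of a coding transcript. Motifs were searched on both strands in 201 bp centred on each summit. Symbols of 2 of the 31 list genes were updated through RefSeq synonyms.

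Named genes were the members, genes in their windows, list genes with a thresholded peak and the 3 genes most like bowl. The members, lists and motifs were chosen with earlier results of these data known. No test was made. Scripts (Python 3.11.15, NumPy 2.4.6, matplotlib 3.10.9) were tested on simulated data.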

Additional observations from a re-analysis of the deposited data

How the results depend on the processing

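The count of 1 family member with a thresholded peak, and of 1 such peak, was the same with distances of 2 kb and 5 kb from the gene, and after summits less than 500 bp apart were reduced to the strongest (664 peaks). Peaks could not be called again without a replicate. Leaving one out meant keeping the thresholded peaks found in the top 1000 of both others, which bowl met each time (1). This could not have come out otherwise, because the bowl peak is in the top 1000 of every replicate. The count was 2 for genes and 2 for peaks at 20 kb, where the Ugt36A1 peak was added to odd. It was 0 for both when the threshold was raised to keep the upper 366 peaks by signal. The bowl peak was found in every replicate under all overlap rules tried. The numbers of top regions tried, 732 or more, could not have lost it, because its lowest replicate rank was 665. The mean rank of the bowl peak lay between 535 and 650 without each replicate in turn. Ranking by column 9, chosen after seeing the data, moved 13 of 16 best ranks by less than the SD of that gene's ranks over the replicates. The others, in replicate 3, were 2551 for odd, 2153 for sob and 1930 for drm. They belong to other regions than the best by signal, and why the columns differ was not tested. Limiting regions to summits within 1 kb of a start left the 4 ranks of bowl as they were, and ranks at odd and drm were lower in every list with such a summit, between 3145 for odd in replicate 2 and 29139 for odd in replicate 1. Using outermost starts only changed the distance of 67 of 216 regions but not that of the bowl peak. Ranking by columns 5 and 8 was not run because they are constant. No paired analysis was possible because there is 1 group. Depth is unknown, and the pooled list and each replicate list held 30000 regions. A region outside one of these lists was thus not among its 30000 at this depth rather than absent.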
